A study of Caenorhabditis elegans with 16 samples.

Results

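The small heat shock genes of Caenorhabditis elegans were followed through whole-body RNA of day 1 adults. The set held 10 genes, chosen by name from the 42048 loci of the deposited tables: sip-1, hsp-16.1, hsp-16.2, hsp-16.41, hsp-12.1, hsp-12.2, hsp-12.3, hsp-12.6, hsp-25 and hsp-43. All 10 names were in the tables, and reads were found for 9 of them. The 16 libraries formed 4 groups of 4. The first group was the strain TU3401 on RNAi bacteria labelled Luc. The other 3 groups carried a glp-1 mutation in the TU3401 background (strain SHU47 in the labels) and were fed Luc as the control or RNAi against mml-1 or against mxl-2. The allele of glp-1 is not given in the labels. All groups therefore shared the TU3401 background, in which, as known from the field, the double-stranded RNA channel SID-1 is missing except in neurons, where the unc-119 promoter drives it, so that RNAi by feeding acts mainly in neurons while the RNA measured here came from the whole body. All worms were kept at 20 °C and fed HT115 bacteria with the L4440 vector, and no heat shock is named in the labels. The series describes the glp-1 worms as germline-less.

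Small heat shock proteins share a conserved alpha-crystallin domain. They hold unfolding proteins without using ATP, so that clumping is delayed and ATP-driven chaperones of the HSP70 class can refold the client later. In worms the family has heat-inducible members, of which the HSP-16 proteins are the best known and are switched on by the heat shock factor HSF-1, and members that are made without stress in particular tissues. Several of the genes are also known as targets of the FOXO factor DAF-16, which is active in worms that lack a germline. MML-1, the worm Mondo factor, pairs with MXL-2, the worm Mlx factor, on DNA.

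Values are RPKM, reads scaled to gene length and to library size, so that levels of different genes can be compared. The recovered totals ran from 18818680 to 27228111 reads per library. Whether the 4 libraries of a group came from separate cultures is not in the labels, so p-values measure only the spread between these libraries. Neither knockdown group had a lower level of its target. The level of mml-1 was 41.8 ± 33.3 RPKM under the mml-1 RNAi label and 20.6 ± 11.4 RPKM in the control (SD, n = 4 each, limma adjusted p = 0.819). The first of these means rests largely on library 2, at 91.5 RPKM, and was 25.2 ± 3.25 RPKM without it (SD, n = 3). The level of mxl-2 was 225.1 ± 339.6 RPKM under the mxl-2 RNAi label and 24.7 ± 4.003 RPKM in the control (SD, n = 4 each, limma adjusted p = 0.766). Library 3 of the mxl-2 RNAi label held 733 RPKM of mxl-2, and the mean was 55.8 ± 31.6 RPKM without it (SD, n = 3). The library labelled mml-1 RNAi number 3 also held 308 RPKM of mxl-2. Whether the targets fell in neurons cannot be read from whole-body RNA, and the groups are called by their labels throughout.

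In TU3401 worms most reads of the family came from sip-1, and in glp-1 worms the highest levels were those of hsp-25, hsp-43 and hsp-12.2. The 10 genes together took 1904 ± 254 reads per 1000000 library reads in TU3401 and 533 ± 36.4 in the glp-1 control (SD, n = 4 each). Of the member reads, sip-1 made up 82.6 ± 3.56% in TU3401, from 78.7 to 87.1% by library, and 0.0281 ± 0.0116% in the glp-1 control. Without sip-1 the order turned round, with 326 ± 35.8 such reads in TU3401 and 533 ± 36.4 in the glp-1 control. Under the mml-1 RNAi label the libraries held 661 ± 85.9 and under the mxl-2 RNAi label 608.5 ± 27.5 on the same scale for all 10 genes. The 4 TU3401 libraries lay above every glp-1 library in the sum of all members and below every one of them once sip-1 was left out.

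**Figure D1:**
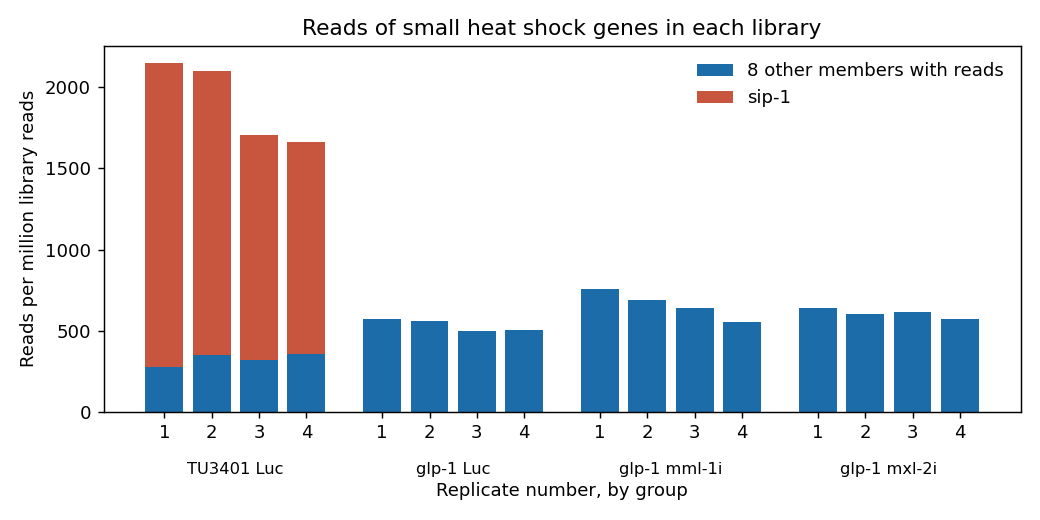
Reads of the small heat shock genes per 1000000 library reads (vertical axis) in each of the 16 libraries, by group and replicate number, with sip-1 stacked on the 8 other members that had reads. The sip-1 part fills most of each TU3401 bar and cannot be seen in any glp-1 bar.

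Ordered by mean RPKM, the genes in TU3401 ran sip-1, hsp-43, hsp-25, hsp-12.2, hsp-16.2, hsp-16.41, hsp-12.1, hsp-12.3 and hsp-12.6. Of the neighbours in that order, the libraries of hsp-16.2 and hsp-16.41 overlapped and so did those of hsp-16.41 and hsp-12.1. In the glp-1 control the order was hsp-25, hsp-43, hsp-12.2, hsp-12.3, hsp-16.2, hsp-16.41, hsp-12.1, hsp-12.6 and sip-1, and hsp-16.2 overlapped with hsp-16.41 and hsp-12.1 with hsp-12.6. Among all loci, sip-1 held place 7 by mean level in TU3401 and place 15408 in the glp-1 control. Over the same groups hsp-25 moved from place 1841 to place 493 and hsp-12.3 from place 9985 to place 2191. hsp-43 held place 790 in TU3401 and place 793 in the glp-1 control.

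**Figure D2:**
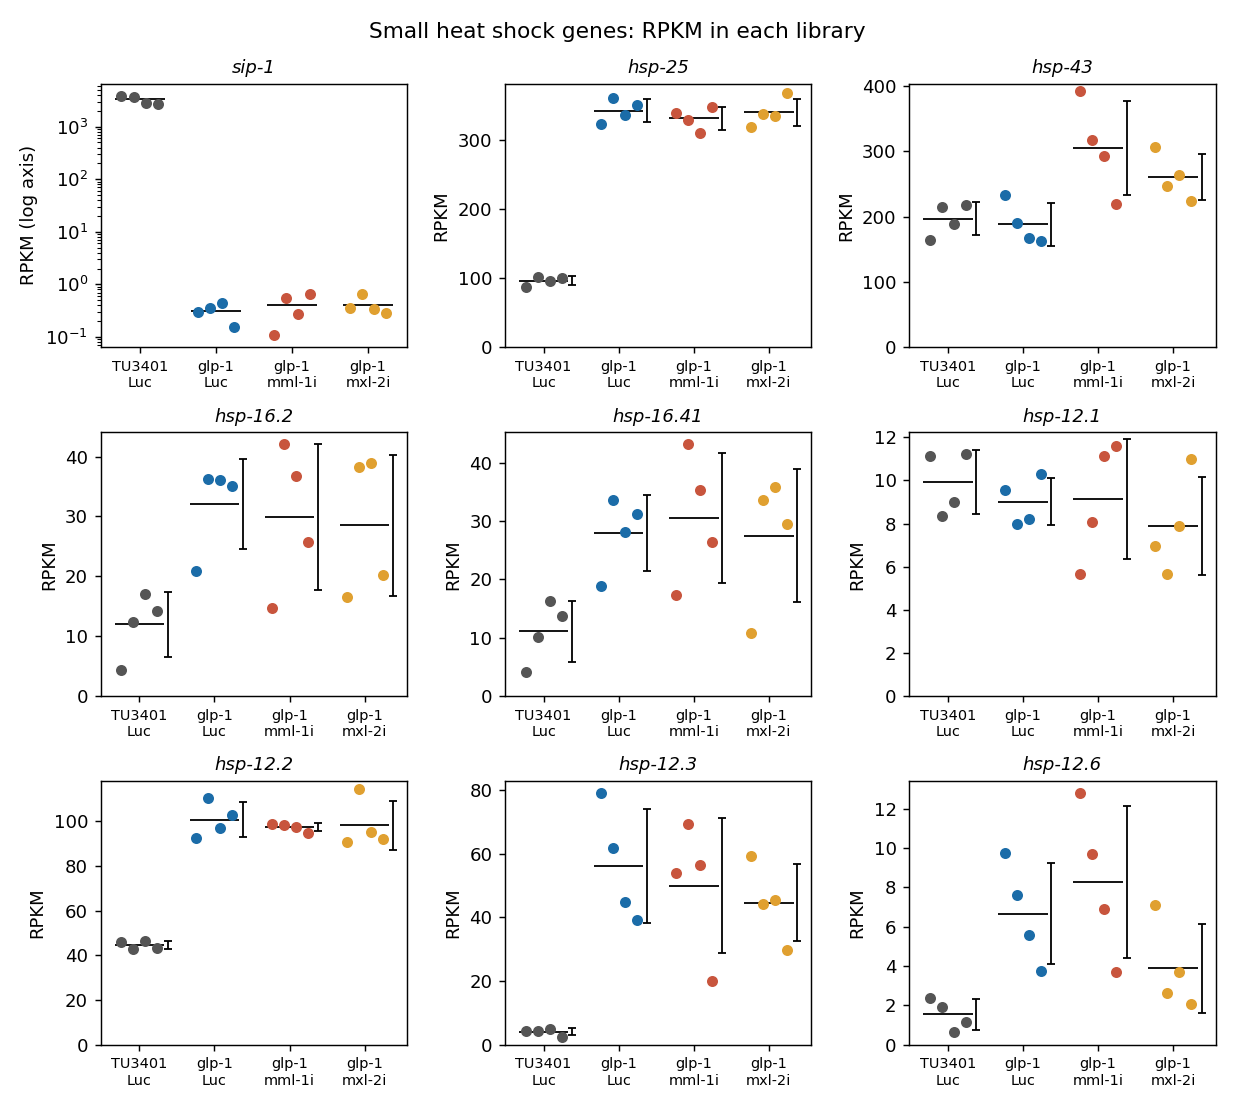
RPKM of each of the 9 members with reads (vertical axes, linear from 0 except a log axis for sip-1) in the 4 libraries of each group, in order of replicate number. Horizontal lines are group means and bars are 1 SD, left out for sip-1. All TU3401 libraries lie apart from all glp-1 control libraries for 7 of the 9 genes, with sip-1 higher and the other 6 lower in TU3401.

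The comparison of glp-1 worms with TU3401 worms on the same RNAi asks how the loss of the germline goes with these genes. Of 9 members tested, 6 rose in glp-1 worms, 1 fell and 2 did not pass the test (limma adjusted p under 0.05). Those that rose were hsp-12.3, hsp-25, hsp-12.6, hsp-16.2, hsp-16.41 and hsp-12.2, and sip-1 fell. Changes were general in this comparison: of 13563 genes tested, 41.5% were called higher and 46.1% lower. The libraries did not overlap for 6 members that were higher and for 1 that was lower, where this held for 38.4% of all genes tested on the higher side and 45.0% on the lower side. The median log2 fold change of the tested members was 1.37 and that of all genes tested was -0.06. The members were chosen with earlier results of these data known, so these figures describe the list and do not test it against all genes. RPKM is a share of the library's reads, so the fall of one large class of RNA raises the share of the rest, and in RNA of whole bodies fewer cells of a type and less RNA per cell cannot be told apart. Quantile scaling moved the median of all genes to 0.42. The same 7 members were called in the same direction there, and hsp-12.1 was called in addition.

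**Figure D3:**
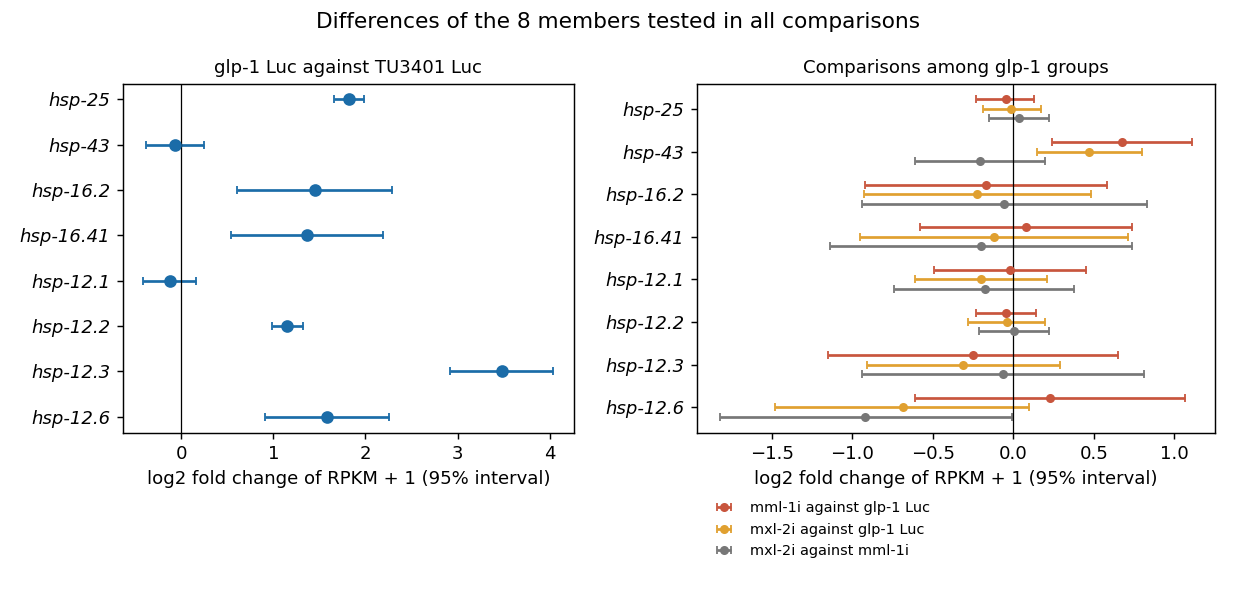
Log2 fold change of RPKM + 1 (horizontal axis) with its 95% interval from limma for the 8 members tested in every comparison, with glp-1 on Luc against TU3401 on the left and the 3 comparisons among glp-1 groups on the right. On the left 6 intervals lie above 0. On the right the intervals of hsp-43 lie above 0 for both knockdowns against the control, before adjustment over all genes.

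The gene sip-1 (F43D9.4, chromosome III, 10506106 to 10506801, WBcel235, minus strand) encodes a small heat shock protein known from oocytes and embryos. The TU3401 libraries 1 to 4 held 3898, 3644, 2881 and 2731 RPKM of it, from 31213 to 40791 reads each. In the glp-1 control, libraries 1 to 4 held 0.293, 0.358, 0.440 and 0.153 RPKM, which came from 3, 4, 5 and 2 reads. The groups lay far apart, and each glp-1 control library was down to a handful of reads. Group means were 3288 ± 569.6 and 0.311 ± 0.121 RPKM (SD, n = 4 each), a log2 difference of -11.28 (limma adjusted p = 1.05e-11, SE 0.13, lower in 4 of 4 libraries). That difference is on the log2(RPKM + 1) scale, which understates the change of a gene that is near 0 in a group, and limma's voom on recovered reads gave -13.25. By recovered reads, 140962 in TU3401 against 14 in the glp-1 control, the level was 10600-fold lower (95% exact interval 6340 to 19400, which covers counting error only).

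The other glp-1 groups held as little sip-1. There were 18 reads of it over the 4 mml-1 RNAi libraries and 17 over the 4 mxl-2 RNAi libraries, or 0.397 ± 0.253 and 0.408 ± 0.164 RPKM (SD, n = 4 each). Those levels overlapped with the control's, and the gene was under the filter of 1 RPKM in these comparisons. Markers of the oocyte and germline moved with sip-1. Of the 11 listed, 11 fell in glp-1 worms, where 46.1% of all genes tested were called lower. The summed level of these markers went from 7845 to 8147 RPKM in TU3401 libraries to 13.4 to 21.3 RPKM in glp-1 control libraries. Early embryo genes fell too, from summed levels of 27.4 to 37.9 RPKM to 0.0805 to 0.491 RPKM, with end-1, end-3, med-1 and pes-10 at 0 in the glp-1 control. The part of oocytes and of embryos held in the body in the sip-1 level was not tested. A non-coding gene on the other strand, F43D9.8, overlaps sip-1, and strandedness is not stated in the labels.

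The heat-inducible pair hsp-16.2 and hsp-16.41 rose together in glp-1 worms, by about the same factor and at nearly the same level. The genes lie head to head on chromosome V (WBcel235), hsp-16.2 from 1804334 to 1804957 on the minus strand and hsp-16.41 from 1805178 to 1805875 on the plus strand, with 220 bases between them. TU3401 libraries 1 to 4 held 4.37, 12.33, 17.1 and 14.2 RPKM of hsp-16.2. Control glp-1 libraries held 20.9, 36.3, 36.2 and 35.1 RPKM. The highest TU3401 library lay under the lowest glp-1 control library, and in both groups library 1 was the lowest. The means of hsp-16.2 were 11.997 ± 5.45 and 32.1 ± 7.50 RPKM (SD, n = 4 each), 2.68 times as high, and the log2 fold change was 1.45 (limma adjusted p = 0.005, SE 0.37, higher in 4 of 4).

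For hsp-16.41 the TU3401 libraries held 4.18, 10.1, 16.3 and 13.7 RPKM. The glp-1 control libraries held 18.8, 33.7, 28.1 and 31.3 RPKM. Again no library overlapped and library 1 of each group was the lowest. The means of hsp-16.41 were 11.1 ± 5.24 and 28.0 ± 6.53 RPKM (SD, n = 4 each), 2.53 times as high, and the log2 fold change was 1.37 (limma adjusted p = 0.00623, SE 0.36, higher in 4 of 4). The ratio of hsp-16.2 to hsp-16.41 had a median of 1.06 over the 16 libraries and ran from 0.687 to 1.53, with both ends in the libraries labelled mxl-2 RNAi. With group means removed, the levels of the pair on the log2 scale had a Pearson correlation of 0.92 over 16 libraries. This is a description, since the genes share each library's worms, depth and replicate number.

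**Figure D4:**
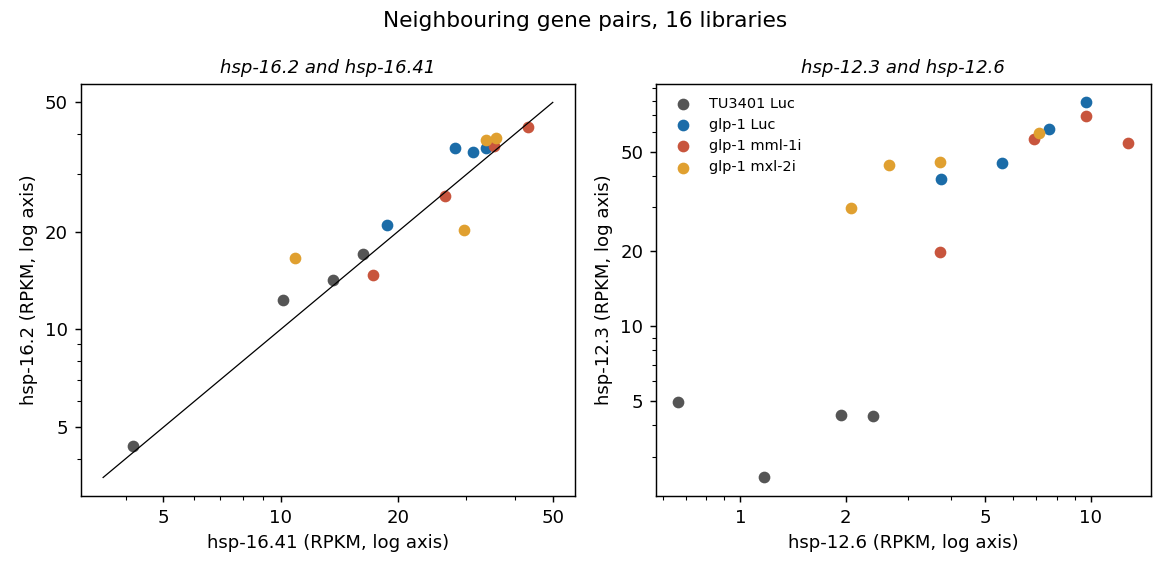
RPKM of neighbouring genes in the 16 libraries (log axes), coloured by group. The line on the left marks equal levels: hsp-16.2 and hsp-16.41 lie along it in every group, while on the right hsp-12.3 is from 1.82 to 16.6 times as high as hsp-12.6.

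The other HSP-16 genes were listed at 0. The member hsp-16.1 (T27E4.8, chromosome V, 9087293 to 9087782, WBcel235) had no read in any of the 16 libraries, which allows up to 0.252 to 0.364 RPKM by a limit of 3 reads per library. The related genes hsp-16.11, hsp-16.48 and hsp-16.49 were also at 0 in all libraries. These 4 genes lie together on chromosome V as near-identical copies of a gene pair, and the sources used here do not give how reads that fit several copies were counted. Their level is therefore uncertain.

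The 4 genes of the HSP-12 class encode the shortest proteins of the family, with little beyond the alpha-crystallin domain. In glp-1 worms 3 of the 4 rose, where 41.5% of all genes tested were called higher. The change of hsp-12.3 (F38E11.1, chromosome IV, 9444791 to 9445507, WBcel235) was the largest rise among the members. The TU3401 libraries 1 to 4 held 4.35, 4.42, 4.97 and 2.47 RPKM of hsp-12.3. In the glp-1 control, libraries 1 to 4 held 78.9, 61.8, 44.9 and 39.1 RPKM. Every glp-1 control library was well above every TU3401 library, and the control libraries spread over a wide range. Group means were 4.05 ± 1.09 and 56.2 ± 18.0 RPKM (SD, n = 4 each), 13.9 times as high, and the log2 fold change was 3.48 (limma adjusted p = 9.32e-07, SE 0.25, higher in 4 of 4), and 99.5% of all genes tested had a lower value.

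Its neighbour hsp-12.6 (F38E11.2, chromosome IV, 9446229 to 9447228) lies 721 bases away on the same strand and is known as a gene that responds to DAF-16. TU3401 libraries held 2.39, 1.93, 0.665 and 1.17 RPKM of hsp-12.6. Control glp-1 libraries held 9.73, 7.60, 5.58 and 3.75 RPKM. The groups did not overlap, and every control library was above every TU3401 library. Group means were 1.54 ± 0.772 and 6.67 ± 2.58 RPKM (SD, n = 4 each), 4.33 times as high, and the log2 fold change was 1.58 (limma adjusted p = 0.00079, SE 0.30, higher in 4 of 4). That fold change is on the log2(RPKM + 1) scale, which also understates changes at these low levels, and voom gave 2.12. The ratio of hsp-12.3 to hsp-12.6 had a median of 2.20 in TU3401 (1.82 to 7.47) and 8.12 in the glp-1 control (8.05 to 10.4). The highest TU3401 ratio, close to the lowest of the control, was that of library 3, where hsp-12.6 had 5 reads. Under mml-1 RNAi the median was 6.27 (4.23 to 8.17) and under mxl-2 RNAi 13.3 (8.34 to 16.6).

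The gene hsp-12.2 (C14B9.1, chromosome III, 8138077 to 8139631) had the tightest libraries of the class. TU3401 libraries held 46.0, 42.7, 46.6 and 43.4 RPKM of hsp-12.2. The glp-1 control libraries held 92.6, 110.5, 97.1 and 103 RPKM. The groups did not overlap and the spread within each was small beside the gap. Group means were 44.7 ± 1.88 and 101 ± 7.69 RPKM (SD, n = 4 each), and the log2 fold change was 1.153 (limma adjusted p = 3.75e-07, SE 0.07, higher in 4 of 4).

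The remaining gene of the class, hsp-12.1 (T22A3.2, chromosome I, 10581538 to 10582615), was not called. TU3401 libraries held 11.1, 8.35, 9.02 and 11.2 RPKM of hsp-12.1. In the glp-1 control, libraries 1 to 4 held 9.55, 7.98, 8.23 and 10.3 RPKM. The groups overlapped over most of their range, although each control library was lower than the TU3401 library of its number. The log2 fold change was -0.12 (95% interval -0.41 to 0.16, limma adjusted p = 0.364). After quantile scaling it was 0.49 (limma adjusted p = 0.00702), close to the median of 0.42 that all genes had under that scaling.

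The muscle-associated member hsp-25 rose in glp-1 worms with little spread. HSP-25 is known from the dense bodies and M-lines that anchor the filaments of body wall muscle. The TU3401 libraries 1 to 4 held 87.2, 102, 96.1 and 99.6 RPKM of hsp-25 (C09B8.6, chromosome X, 6034463 to 6039644). Control glp-1 libraries held 323, 362, 337 and 351 RPKM. No library of either group came near the other group. Group means were 96.1 ± 6.38 and 343 ± 16.8 RPKM (SD, n = 4 each), 3.57 times as high, and the log2 fold change was 1.83 (limma adjusted p = 1.37e-08, SE 0.07, higher in 4 of 4).

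Markers of body wall muscle moved in the same direction as hsp-25. Of the 6 listed (unc-54, myo-3, unc-15, unc-22, act-4 and tnt-3), 6 rose, with a median log2 fold change of 1.76 and summed levels of 806 to 958 RPKM in TU3401 libraries and 2792 to 3142 RPKM in glp-1 control libraries. Markers of other somatic tissues rose in part: 6 of 6 for the somatic gonad and spermatheca and 4 of 6 for the intestine. For the pharynx 3 of 4 rose and pha-4 fell. For the hypodermis 1 of 2 tested rose and dpy-7 fell (log2 fold change -4.07). Among all genes tested, 41.5% were called higher. The part of muscle in the hsp-25 result was not tested. The end of hsp-25 overlaps the end of ipp-5 on the other strand, and the lengths recovered from the values match coding sequence for 9 of 9 members with reads.

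The longest member, hsp-43 (C14F11.5, chromosome X, 6233151 to 6235543), encodes a protein known from cells of the vulva and the spermatheca, and its share did not pass the test between glp-1 and TU3401 worms. TU3401 libraries held 164, 215, 189 and 218 RPKM of hsp-43. The glp-1 control libraries held 234, 191, 167 and 162 RPKM. The groups overlapped, with 3 of 4 control libraries lower than the TU3401 library of their number. Group means were 197 ± 25.03 and 188 ± 32.8 RPKM (SD, n = 4 each), a log2 fold change of -0.07 (95% interval -0.38 to 0.25, limma adjusted p = 0.645). Markers of the somatic gonad and spermatheca, 6 of 6 of which rose, had summed levels of 85.4 to 107 RPKM in TU3401 libraries and 149.9 to 179.9 RPKM in glp-1 control libraries. Over all genes tested, 41.5% were called higher and 46.1% lower. Of the markers of other tissues, 4 of 6 for the intestine rose and 2 were not called, and for the pharynx 3 of 4 rose and pha-4 fell (log2 fold change -0.65, limma adjusted p = 0.00562). With quantile scaling 3 of 6 intestine markers rose, and of the pharynx markers 3 rose and 0 fell. For the hypodermis 2 of 5 could be tested, of which col-19 rose (log2 fold change 1.39) and dpy-7 fell (-4.07), and for sperm 1 of 5, spe-26, which rose (0.59). Their part in the level of hsp-43 was not tested.

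Other genes of the family and their partners differed in how they moved. Of 8 further genes of the family listed, 4 could be tested and 3 of them rose: hsp-17, ZK1128.7 and Y55F3BR.6. Of all genes tested, 41.5% were called higher. The level of hsp-17 was 59.999 ± 12.8 RPKM in TU3401 and 114.9 ± 37.2 RPKM in the glp-1 control (SD, n = 4 each, log2 fold change 0.89, limma adjusted p = 0.0105), with overlapping libraries. For ZK1128.7 the mean levels were 11.3 ± 1.66 and 27.2 ± 2.93 RPKM (SD, n = 4 each, log2 fold change 1.199, limma adjusted p = 7.21e-06). F08H9.3 was not called (log2 fold change 0.10, limma adjusted p = 0.814) and F08H9.4 was under the filter.

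Of 25 names listed as heat shock regulators and partner chaperones, 23 were found. Of these genes 21 could be tested, of which 16 fell, 4 rose and 1 was not called. Their median log2 fold change was -1.87, against -0.06 for all genes tested, of which 46.1% were called lower and 41.5% higher. This list too was chosen with earlier results known. With quantile scaling 15 of the tested genes of the list fell and 5 rose. The list includes stip-1, which fell (log2 fold change -2.52) and whose link to heat shock was not checked. The gene of the heat shock factor itself, hsf-1, fell from 67.9 ± 4.37 to 13.3 ± 1.56 RPKM (SD, n = 4 each, log2 fold change -2.27, limma adjusted p = 1.43e-08). The gene of its inhibitor, hsb-1, fell from 223 ± 9.10 to 135 ± 14.5 RPKM (SD, n = 4 each, log2 fold change -0.72, limma adjusted p = 3.75e-05). The constitutive HSP70 gene hsp-1 fell from 1383 ± 137 to 332 ± 84.7 RPKM (SD, n = 4 each, log2 fold change -2.08, limma adjusted p = 1.49e-06). The largest changes among the listed genes were falls of the mitochondrial chaperonin hsp-60 (log2 fold change -3.32), the HSP90 co-chaperone sti-1 (-2.98) and ddl-1 (-2.95), a partner of HSB-1. The heat-inducible hsp-70 rose from 1.67 ± 0.435 to 9.97 ± 9.03 RPKM (SD, n = 4 each, log2 fold change 1.76, limma adjusted p = 0.00398). Library 1 of the control held 23.5 RPKM of hsp-70 and the others 4.64 to 6.56 RPKM. Without library 1 of the control its mean was 5.47 ± 0.985 RPKM (SD, n = 3) and the log2 fold change 1.28 (limma adjusted p = 0.000123). The genes pqm-1, unc-23 and hlh-30 rose too. The level of daf-16 was 56.1 ± 2.80 and 64.2 ± 11.7 RPKM (SD, n = 4 each, log2 fold change 0.17, limma adjusted p = 0.218). F44E5.4 and F44E5.5, near-identical copies of an inducible HSP70 gene, were at 0 in both groups, and C12C8.1 and hsp-90 were not found under those names, while hsp-70 and daf-21 were.

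The comparisons of mml-1 RNAi and mxl-2 RNAi with the control ask whether neuronal knockdown of these factors goes with a difference in germline-less worms. Without the replicate number in the model no small heat shock gene was called in either: limma called 0 of 8 tested members in each comparison, with 1 at an unadjusted p under 0.05, which was hsp-43 in both. Limma's voom on recovered reads without a block also called 0 members in each, and so did the authors' deposited tables by their false discovery rate. With the replicate number as a block, limma called 1 member for mml-1 RNAi and 0 for mxl-2 RNAi, and voom called 1 in each, every time hsp-43. The number of genes called over the whole table rested on the block. Without it, of 12591 genes tested for mml-1 RNAi, 0% were called higher and 0.0159% lower, with 985 at an unadjusted p under 0.05. Of 12581 genes tested for mxl-2 RNAi without it, 0.0159% were called higher and 0.0874% lower. With the block, limma called 60 genes and voom 411 for mml-1 RNAi, and 24 and 287 for mxl-2 RNAi, against 2 and 13 for limma without it. All 10 members overlapped between the groups in both comparisons, where 2.14% and 2.61% of all genes did not overlap on the higher and lower side for mml-1 RNAi and 2.15% and 1.97% for mxl-2 RNAi. Both comparisons use the same 4 control libraries.

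The member with the largest difference from the control in the mml-1 comparison was hsp-43. Libraries 1 to 4 under mml-1 RNAi held 392, 317, 292.5 and 219 RPKM of it, and those under mxl-2 RNAi held 307, 247, 263 and 224 RPKM. The control libraries held 234, 191, 167 and 162 RPKM. Each knockdown library was above the control library of its number, by 1.35 to 1.76 times for mml-1 RNAi and by 1.30 to 1.58 times for mxl-2 RNAi, but the lowest knockdown libraries lay under the highest control library. The means of hsp-43 were 305 ± 71.5 for mml-1 RNAi, 260.4 ± 34.9 for mxl-2 RNAi and 188 ± 32.8 RPKM for the control (SD, n = 4 each).

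Without the replicate number in the model, hsp-43 had a log2 fold change of 0.68 for mml-1 RNAi (SE 0.19, 95% interval 0.24 to 1.11, limma adjusted p = 0.41) and 0.47 for mxl-2 RNAi (SE 0.14, 95% interval 0.15 to 0.80, limma adjusted p = 0.5). With the replicate number as a block the adjusted p was 0.0424 for mml-1 RNAi and 0.0665 for mxl-2 RNAi, and voom on recovered reads with the block gave 0.00383 and 0.0165. The call for mml-1 RNAi with the block was lost when pair 1, 2 or 3 was left out (limma adjusted p = 0.152, 0.174 and 0.197) and held without pair 4 (0.0267). In the authors' deposited tables the log2 fold change of hsp-43 was 0.69 with a false discovery rate of 0.542 for mml-1 RNAi and 0.47 with 1.0 for mxl-2 RNAi. Without the library labelled mml-1 RNAi number 3, which held much mxl-2, the value for mml-1 RNAi was 0.69. The difference between the knockdowns was -0.21 (95% interval -0.61 to 0.20, limma adjusted p = 1.0).

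The levels of hsp-12.6 lay on both sides of the control. Under mml-1 RNAi the libraries held 12.8, 9.67, 6.91 and 3.70 RPKM of it. Those under mxl-2 RNAi held 7.11, 2.65, 3.71 and 2.07 RPKM. Each mxl-2 library was lower than both the control library and the mml-1 library of its number, and the groups overlapped. The log2 fold change of hsp-12.6 was 0.23 for mml-1 RNAi (95% interval -0.61 to 1.07) and -0.69 for mxl-2 RNAi (95% interval -1.48 to 0.10, limma adjusted p = 0.823). Between the knockdowns it was -0.92 (SE 0.39, 95% interval -1.82 to -0.01), with an unadjusted p of 0.047 and a limma adjusted p = 1.0. In that comparison 0 members were called by limma, with 1 at an unadjusted p under 0.05, and 0 by voom. Of 12540 genes tested there, 0% were called in either direction and 0.463% and 0.215% did not overlap on the higher and lower side.

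The other members stood close to the control. For hsp-25 the mean levels were 332 ± 16.7 RPKM for mml-1 RNAi and 341 ± 20.2 RPKM for mxl-2 RNAi (SD, n = 4 each), and the 95% intervals of the log2 fold change were -0.23 to 0.13 and -0.19 to 0.17. For hsp-12.2 the mean levels were 97.3 ± 1.83 and 98.1 ± 10.9 RPKM, with intervals of -0.23 to 0.14 and -0.28 to 0.20. The libraries of both genes lay close together. Members with a wider spread had wider intervals. For hsp-12.3 the mean levels were 49.95 ± 21.1 and 44.7 ± 12.09 RPKM, with intervals of -1.15 to 0.65 and -0.91 to 0.29. For hsp-16.2 they were 29.8 ± 12.18 and 28.5 ± 11.7 RPKM, with intervals of -0.92 to 0.58 and -0.93 to 0.48. For hsp-16.41 they were 30.6 ± 11.2 and 27.5 ± 11.4 RPKM, with intervals of -0.58 to 0.74 and -0.95 to 0.71. For hsp-12.1 the mean levels were 9.13 ± 2.79 and 7.88 ± 2.27 RPKM, with intervals of -0.49 to 0.45 and -0.61 to 0.21.

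No gene of the further family list and none of the 21 tested genes listed as regulators and partner chaperones was called in either knockdown. This held for limma and voom, with or without the block.

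Libraries of the same number resembled each other in several members, over groups of different genotype and RNAi. Number 1 was the lowest library in 4 of 4 groups for hsp-16.2 and in 4 of 4 for hsp-16.41. Number 1 was the highest in 4 of 4 groups for hsp-12.6, and number 4 was the lowest in 4 of 4 for hsp-12.3 and the highest in 4 of 4 for hsp-12.1. The labels do not say what a number marks. The spread between the libraries of a group, as SD over mean, ran from 4.89 to 6.64% for hsp-25 and from 38.7 to 58.0% for hsp-12.6, and from 23.3 to 47.4% for hsp-16.41.

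**Figure D5:**
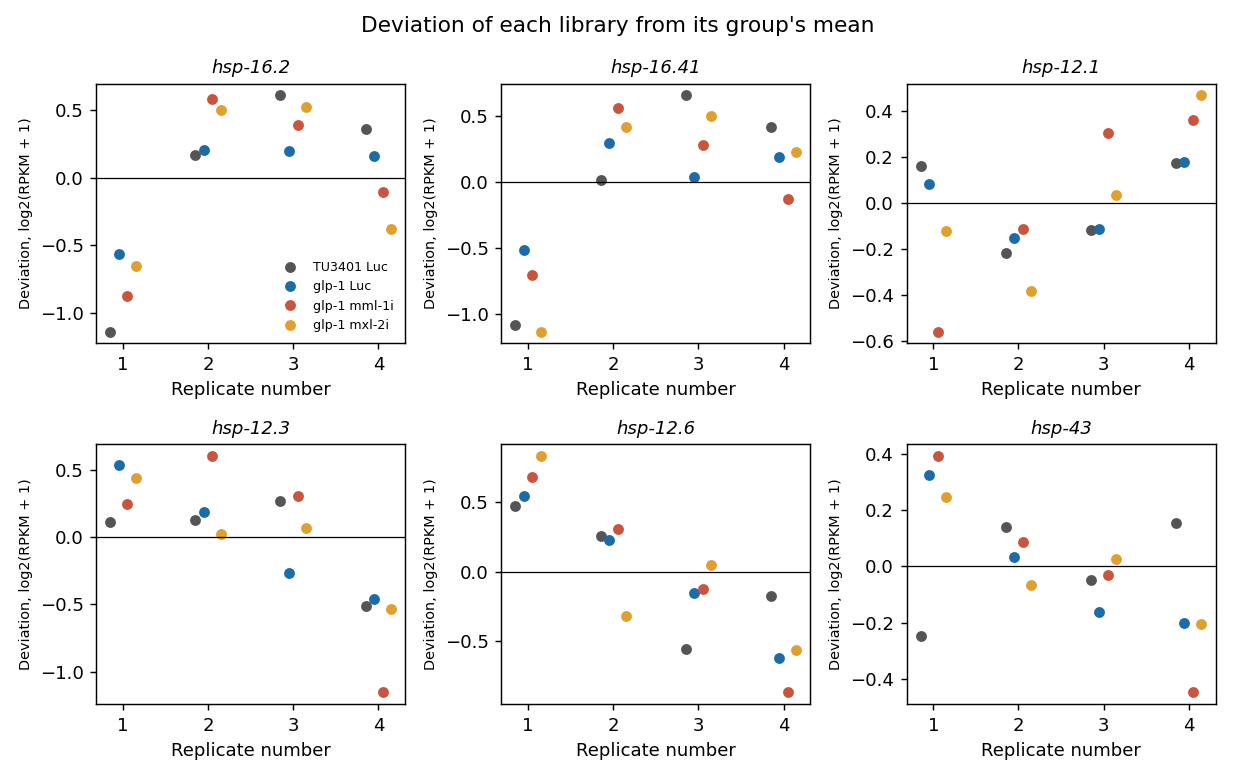
Deviation of each library from the mean of its group on the log2(RPKM + 1) scale (vertical axes) against replicate number (horizontal axes) for 6 members, coloured by group. Number 1 is the lowest in every group for hsp-16.2 and hsp-16.41 and the highest in every group for hsp-12.6, and number 4 is the lowest in every group for hsp-12.3.

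With group means removed, hsp-12.6 and hsp-43 varied together, with a Pearson correlation of 0.95 over the 12 germline-less libraries and 0.76 over all 16. The correlation of hsp-12.3 was 0.86 with hsp-12.6 and 0.87 with hsp-43 over the 12 libraries. These 3 genes ran against hsp-17, which had -0.86 with hsp-12.6, -0.89 with hsp-43 and -0.69 with hsp-12.3. The libraries share worms, depth and numbers, and the correlations are given as a description.

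The genes most like each member were taken over 6533 named genes with a mean of at least 1 RPKM. Over all 16 libraries, where the difference between TU3401 and glp-1 worms weighs most, hsp-16.41 was the gene most like hsp-16.2 (Pearson r = 0.958) and hsp-16.2 the gene most like hsp-16.41. Next to hsp-16.2 came pudl-1 and hpo-8 (r = 0.933 and 0.922), and next to hsp-16.41 came rhr-2 and ifb-1 (0.932 and 0.923). The genes most like hsp-25 were aldo-1, an aldolase gene (r = 0.997), anmt-2 and unc-27, the gene of a muscle troponin I (both 0.996). Those most like hsp-12.3 were pcca-1 and mmcm-1, genes of propionate breakdown, and aakg-4, a gene of an AMP kinase subunit (r = 0.988, 0.984 and 0.984). For hsp-12.2 they were lgc-22, gly-6 and ceeh-1 (r = 0.993, 0.991 and 0.991), and for hsp-12.1, with weaker likeness, trx-3, clec-4 and clec-17 (0.754, 0.697 and 0.658). Those most like hsp-12.6 were fipr-26, ogdh-1 and scl-11 (r = 0.919, 0.917 and 0.916). For sip-1 they were aptf-3, mcm-2 and gadr-2 (r = 1.0 each), which had means of 34.9, 198 and 4.11 RPKM in TU3401 and under 1 RPKM in each glp-1 group.

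The gene most like hsp-43 was acs-2, an acyl-CoA synthetase gene of fat breakdown (r = 0.89), with means of 11.7 RPKM in TU3401, 13.3 in the glp-1 control, 499 under mml-1 RNAi and 356 under mxl-2 RNAi. It was followed by sodh-2 and cnc-4 (r = 0.869 and 0.867). With group means removed over the 12 germline-less libraries, the list changed. The genes most like hsp-43 were then cbs-1, aakg-4 and ife-1 (r = 0.984, 0.971 and 0.966), and those most like hsp-12.6 were aakg-4, nas-11 and mboa-2 (0.968, 0.962 and 0.961). For hsp-16.2 they were sod-3, a superoxide dismutase gene known as a DAF-16 target, fkb-8 and rnh-1.3 (r = 0.966, 0.942 and 0.941). For hsp-16.41 they were tba-9, sod-3 and ins-35 (0.971, 0.953 and 0.95). By this measure hsp-16.41 held place 45 for hsp-16.2, and hsp-16.2 held place 43 for hsp-16.41 (r = 0.883). The other genes of the HSP-12 class had gur-5, pck-2 and ndk-1 for hsp-12.3 (0.958, 0.958 and 0.952), asp-1, tfbm-1 and ncx-3 for hsp-12.2 (0.967, 0.96 and 0.927) and hacd-1, col-140 and ttr-1 for hsp-12.1 (0.867, 0.867 and 0.85). For hsp-25 they were fbxa-3, ztf-1 and atg-4.1 (0.941, 0.918 and 0.911). For sip-1, at 1 to 8 reads per library there, they were crn-5, fmi-1 and skr-21 (0.946, 0.862 and 0.833).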

How the data were processed

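Whole-body RNA of 16 libraries in 4 groups was analysed from 3 tables of 42048 loci. Per the file headers, the authors deposited RPKM per library and, for each comparison, their own log2 fold changes with p-value and false discovery rate. Control columns shared by tables differed by at most 0.0, so the tables were used on 1 scale. The submitters' processing notes name bcl2fastq, TopHat2 2.1.1 and GRCh38. That is a human build, and the tables list genes of the worm. The build used and the counting tool are not given in the sources used here. Coordinates are from the Ensembl 115 annotation of WBcel235.

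Reads were worked out from the deposited RPKM: 25332 of 25332 loci above 0 came out whole within 0.001, and the other 16716 loci were at 0 throughout. Reads carry no molecular identifiers, so intervals and limits from them cover counting error only.

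Tests used limma 3.58.1 in R 4.3.3 on log2(RPKM + 1), for genes with a mean of at least 1 RPKM over the 8 libraries compared (lmFit, then eBayes with trend and robust settings, 2-sided). Genes were called at a Benjamini-Hochberg adjusted p under 0.05 over all genes tested. Alternatives were quantile and median-ratio scaling, a pseudocount of 0.1, no filter, a filter of 5 RPKM, all 16 libraries in 1 fit, the replicate block, limma voom on recovered reads with and without the block, and leaving out each library. Voom on the recovered reads, without the block, called 5615 genes higher and 6239 lower for glp-1 against TU3401.

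Deviations of same-numbered libraries from their group means were positively correlated in every pair (0.12 to 0.265 for glp-1 against TU3401, 0.291 to 0.614 for mml-1 RNAi and 0.199 to 0.637 for mxl-2 RNAi against the control). With other numbers the highest correlations were -0.025 to 0.24, -0.062 to 0.27 and -0.128 to 0.171. Deviations from a group mean cancel out within the group, so a positive correlation for the same number by itself lowers those with other numbers. Number 3 of glp-1 against TU3401 was the exception, with 0.12 for its own number and 0.127 for another. From the data and not from the labels, the numbers were used as a replicate block in alternative fits only. The main tests used no block and did not pair libraries. Calls of hsp-43 with the block rest on a pairing found in these same data.

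The members and lists were chosen with earlier results of these data known. Named are all members, hsf-1, hsb-1, daf-16, hsp-70, hsp-1, the 3 largest called changes of the lists, and the 3 genes most like each member with reads, over all libraries and within the germline-less groups. The values of mml-1, mxl-2 and hsp-70 without 1 library were added after seeing the data. A search for motifs in promoters was not run, since no sequence was used here.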

Additional observations from a re-analysis of the deposited data

Results flagged for a closer look

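The library numbered 1 of the glp-1 control stood apart from the other 3 of its group for hsp-16.2, with 20.9 RPKM against 35.1 to 36.3 RPKM. The gap was larger than Dixon's range test at 95% allows for 4 samples. Each of the 36 combinations of a member and a group was examined and 1 was marked, where chance marks about 1 in 20. Without that library the log2 fold change of hsp-16.2 for glp-1 against TU3401 was 1.64, and the gene was still called. With each library of the 2 groups left out in turn, it ran from 1.069 to 1.654, and the highest limma adjusted p was 0.0146. Number 1 was also the lowest of its group for hsp-16.2 in the other 3 groups.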

How the results depend on the processing

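For glp-1 against TU3401, the counts of 6 members called higher and 1 lower were kept under every alternative that was run, except that quantile scaling added hsp-12.1, which reversed to 0.4942, and that hsp-12.6 was left untested by a filter of 5 RPKM. Leaving out 1 library gave 11643 to 11921 called genes there. Over all comparisons, 587 values of members kept direction and side of the threshold, 32 uncalled values changed sign, and 4, all of hsp-43, passed it.

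For mml-1 RNAi the number of called genes was 2, and it was 6 with a pseudocount of 0.1, 1 with a filter of 5 RPKM and 39 in the fit of all 16 libraries. Leaving out 1 library gave 0 to 53, the highest without mml-1 RNAi number 4. For mxl-2 RNAi it was 13, and it was 2 without a filter, 8 with a filter of 5 RPKM and 25 in the fit of all libraries. Leaving out 1 library gave 1 to 16.

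With the replicate block, 60 genes were called for mml-1 RNAi and 24 for mxl-2 RNAi, and voom with the block called 411, 287 and, between the knockdowns, 2. The block called 1 member for mml-1 RNAi, and voom with the block 1 for each knockdown. Leaving out pairs 1 to 4 under the block, an alternative chosen after seeing the data, gave 1, 0, 0 and 242 genes for mml-1 RNAi, with 0 to 1 members, and 23, 5, 0 and 86 for mxl-2 RNAi. The block changed no other call of a member. The cause was not tested.

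Depth limits sip-1 in glp-1 worms, at 1 to 8 reads per library. The level of hsp-16.1, at 0, is uncertain, since the counting of reads that fit several copies is not given.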
